A study of Homo sapiens with 9 samples.

Results

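The ALK domain is the stretch of human chromosome 2 that holds ALK, the gene of anaplastic lymphoma kinase. ALK (ENSG00000171094) lies on the minus strand at chr2:29415640-30144452 in hg19, is 729 kb long and has 29 exons in its main transcript. The domain was taken as 23 of the 77404 bins of 40 kb into which the deposited contact maps divide the genome, at chr2:29440001-30360000, here called the core, and it holds 1 of 20136 annotated protein-coding genes. Of the 19 bins that ALK overlaps, 18 lie in the core, and the bin with the 3′ end of the gene lies just outside it. The core was set within 71 bins at chr2:28680001-31520000. It was selected on contact differences between growing and senescent cells in these same libraries, so every difference below is a description and carries no test.

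Contacts were measured by Hi-C, in which DNA ends that lay close together in the nucleus are joined, sequenced and counted by pair of bins. The cells were IMR90, a human fetal lung fibroblast line, and all of them carried ER:HRAS, an oestrogen receptor fusion of HRAS with the G12V mutation. In 3 growing libraries the cells received no tamoxifen, and in 2 libraries of RAS-induced senescence (RIS) they received 100 nM of 4-hydroxytamoxifen for 6 days, which switches the fusion protein on. Growing replicate 3 also carried an MSCV vector. The maps hold no expression values, so neither the cell type nor the senescent state was checked against markers here.

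The libraries held between 109967509 (RIS 1) and 180775315 (growing 3) recovered contacts, of which 90.2% to 93.0% joined bins of the same chromosome, with both RIS libraries below the growing ones. Growing 3 and RIS 2 contained many duplicate reads before filtering and the other libraries few, so differences are also given within these classes. In growing 3 the core had the highest share of contacts beyond 2 Mb of all libraries, and where leaving this library out matters its effect is given. Within the core, 22464, 23864 and 21203 contacts were recovered in growing 1 to 3, and 18922 and 24136 in RIS 1 and 2.

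ALK is a receptor tyrosine kinase that binds the ligands ALKAL1 and ALKAL2 and signals through adaptors such as SHC1, FRS2 and IRS1. It is best known from the developing nervous system, and from tumours in which it is mutated, amplified or fused to another gene. Chromosomes fold into domains whose bins contact each other more than their surroundings, and borders between domains often hold binding sites of CTCF, a protein at which cohesin stops. At a larger scale, active chromatin (compartment A) and inactive chromatin (compartment B) each contact mainly their own kind.

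Matches to the CTCF core consensus, a word of 12 letters, were searched on both strands. Such a match was present in 13.5% of the 70601 bins of 40 kb without undetermined bases. A match lay 1.72 kb upstream of the ALK start site at chr2:30146171-30146182 on the plus strand. The nearest match beyond the right end of the core lay downstream of YPEL5, 18.2 kb from its start site, at chr2:30388006-30388017 on the plus strand. Both are shown with 9 flanking bases on either side, 5′ to 3′ on the strand of the match, with the match in capitals. These are not all the matches in and around the core, and nothing about either end of the core can be read from them.
upstream of ALK: acccaatggCCACTAGGGGGCtgcagagac
beside YPEL5: agaaaagtaCCAGTAGGTGGCatgagtgtg

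In the core, pairs of bins contacted each other more often in RIS than in growing cells. The value given is the log2 of the mean observed over expected contact, where the expected contact is the mean of all bin pairs at the same distance on chromosome 2 of that library, so that 0 is an average place. Over the 253 pairs of core bins it was 0.79, 0.79 and 0.66 in growing 1 to 3 and 1.05 and 1.01 in RIS 1 and 2. The groups did not overlap, and the core was a dense domain in both. The means were 0.75 ± 0.075 (SD, n = 3) and 1.03 ± 0.024 (SD, n = 2), a difference of 0.28. Within the classes of few and many duplicate reads the difference was 0.26 and 0.35. On recovered contacts, which are not balanced between bins, it was 0.45, and the core bins themselves held more contacts per bin in RIS, at 0.22 against 0.09 (log2 over the median bin). The part of this coverage difference in the contact difference was not tested.

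**Figure D1:**
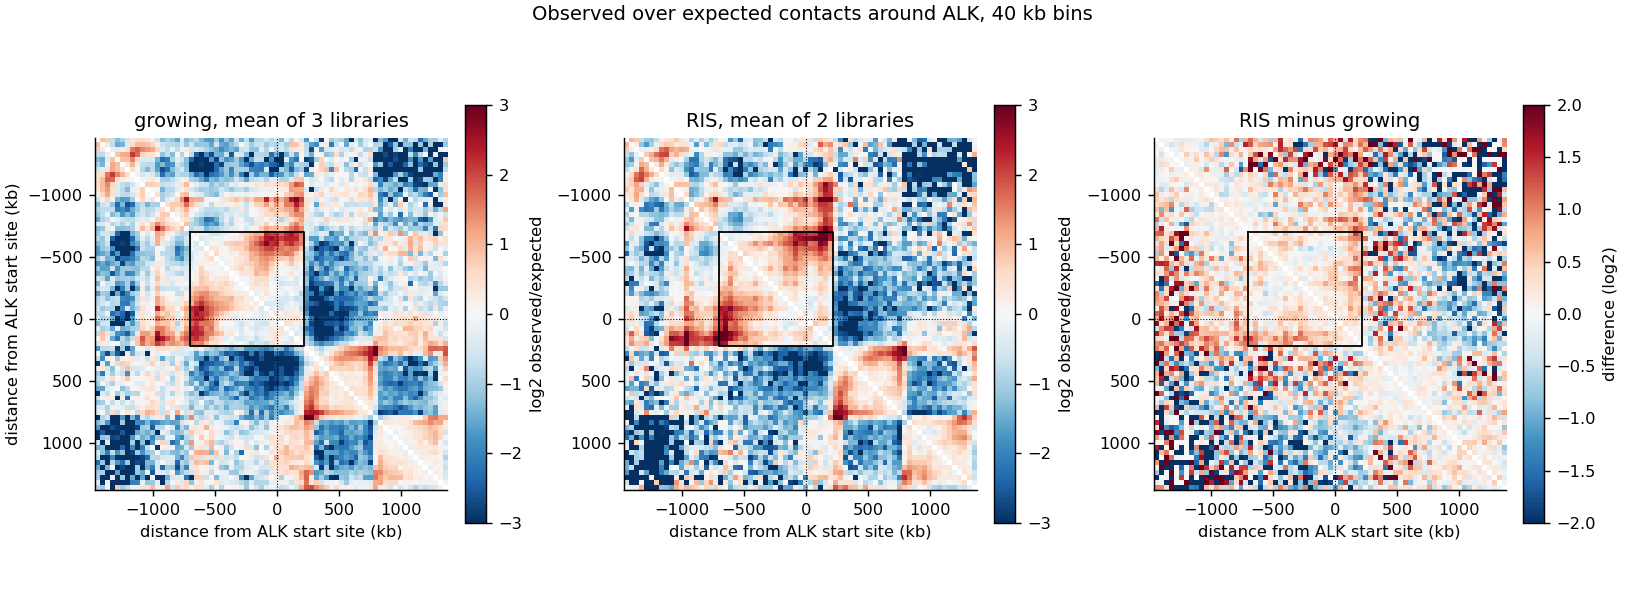
Log2 observed over expected contact for pairs of 40 kb bins around ALK, as the mean of the growing libraries, the mean of the RIS libraries and their difference, against distance from the ALK start site in kb on both axes. The black square is the core of 23 bins, dotted lines mark the start site, and a stripe at the last bins of the core is stronger in RIS.

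Windows of the same 23 bins along the genome give the scale of these values. In 62222 windows whose bins were all usable, the median level in growing cells was -0.04, and 0.460% of windows were at or above the core. The median difference between RIS and growing was 0.01, and 0.280% of the windows, which overlap each other, were at or above that of the core. In RIS cells 0.0466% of windows were at or above the core. The low shares for the difference and for RIS cells follow in part from the selection of the domain on these libraries. Both RIS libraries were above all growing libraries in 39.3% of the windows, so the lack of overlap alone does not set the core apart.

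Taken over all pairs of the core, the difference increased with distance. This did not hold for every part of the domain, as the values by part of the gene below show. For pairs 40 to 120 kb apart the means were 0.07 in growing and 0.24 in RIS cells. Pairs 160 to 360 kb apart had means of 0.33 and 0.57. For the 91 pairs 400 to 880 kb apart the values were 1.42, 1.43 and 1.24 in growing cells and 1.71 and 1.69 in RIS. Of these 3 classes the long pairs had both the highest level and the highest difference, at 0.34.

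ALK itself showed a smaller difference than the core around it. Over the 171 pairs among its 19 bins the value was 0.78, 0.77 and 0.64 in growing 1 to 3 and 0.91 and 0.83 in RIS 1 and 2. Both RIS libraries were above all growing libraries, RIS 2 and growing 1 being the closest. The means differed by 0.14, by 0.10 without growing replicate 3 and by 0.32 on recovered contacts. Among 1028 protein-coding genes that span at least 8 bins, 154 had a difference at or above that of ALK, itself included, while 4.38% had a level in growing cells at or above it.

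The promoter end of ALK, taken as the start site bin and 1 bin on either side, contacted the rest of the gene at 1.03, 1.01 and 0.83 in growing cells and 1.19 and 1.11 in RIS over 51 pairs. The difference of the means was 0.19, with 0.17 and 0.28 in the classes of few and many duplicate reads. It was 0.13 without growing replicate 3 and 0.43 on recovered contacts. With the whole rest of the core the promoter end gave 0.84 and 1.04 as means. In the plot of contacts from the start site bin, the highest point lay in the first 3 bins of the core in every library, inside ALK towards its 3′ end. The bin at 29480001 had 4.90, 5.15 and 4.43 times the expected contact with the start site bin in growing cells and 6.27 and 6.27 in RIS. The next bin, at 29520001, did not separate the groups, with 5.42, 4.72 and 4.65 against 5.26 and 4.49.

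**Figure D2:**
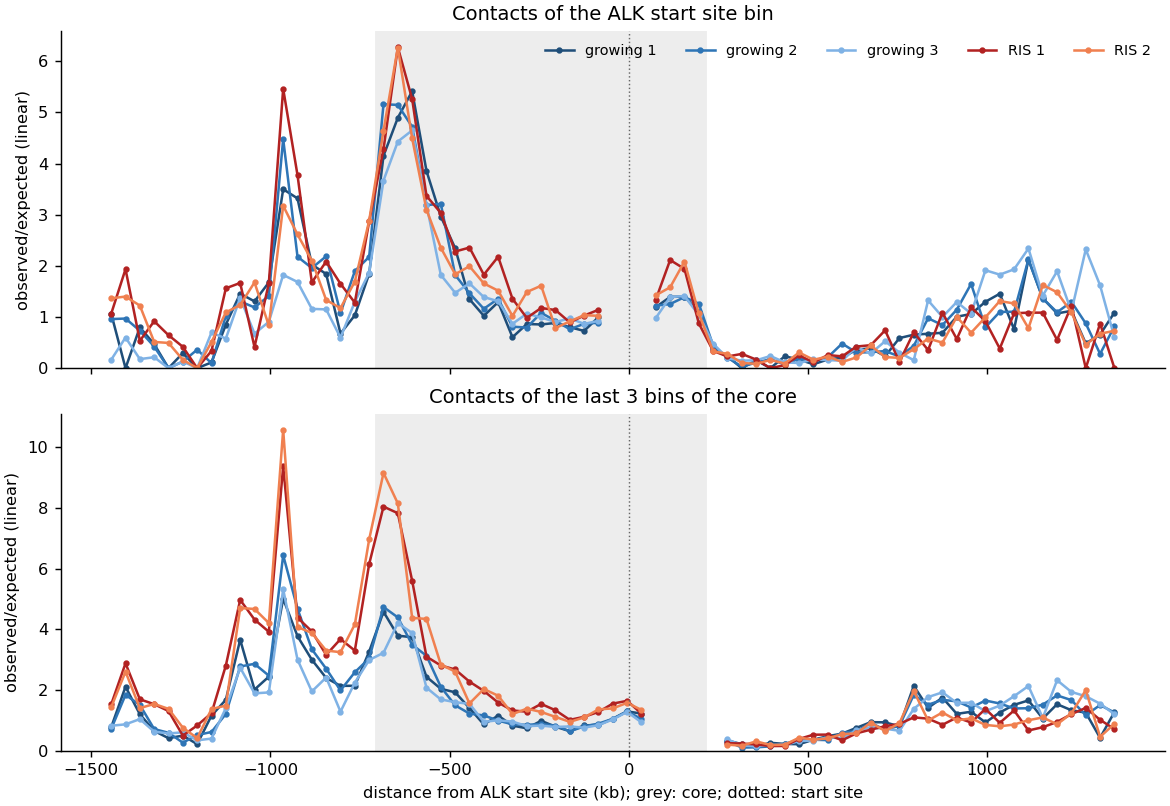
Observed over expected contact (linear) of the ALK start site bin and of the last 3 bins of the core with every bin of the region, against distance from the ALK start site in kb, 1 line per library. The start site view peaks at the left end of the core and the view of the last 3 bins peaks outside the core, to its left, in the bin at 29160001, where the RIS lines reach 9.38 and 10.6 and the growing lines 5.01 to 6.44.

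The strongest difference inside the core lay outside ALK, in the last 3 bins of the core at chr2:30240001-30360000. These bins are upstream of the ALK start site, between ALK and YPEL5, and overlap no protein-coding gene. They were picked after the maps were seen. Their contacts with the rest of the core were 0.68, 0.71 and 0.58 in growing cells and 1.33 and 1.33 in RIS, a difference of 0.67. Without them the difference of the core was 0.15 rather than 0.28. With the first 3 bins of the core, which lie inside ALK towards its 3′ end, they had 2.01, 2.07 and 1.92 in growing cells and 2.84 and 2.85 in RIS. The ends of the domain contacted each other above the expected level in every library, and more often in both RIS libraries than in any growing library.

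Single pairs give these values as contacts, with 3 examples taken from the pairs called higher by voom, so that their direction is that of their choice. The bins at 29440001 and 30280001, 840 kb apart, shared 16, 22 and 19 contacts in growing 1 to 3 and 27 and 50 in RIS 1 and 2. The bins at 29480001 and 30280001 shared 73, 96 and 68 contacts in growing cells and 95 and 130 in RIS, although each RIS library held fewer contacts in all than any growing library. Between 29840001 in intron 3 and 30240001 there were 11, 19 and 17 against 25 and 33.

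By part of the gene, the highest differences were those of the upstream bins with the 3′ part and with intron 3. The 5 bins upstream of ALK in the core contacted the 3′ part of the gene at 1.44, 1.47 and 1.27 in growing cells and 1.99 and 2.02 in RIS. With intron 3 the mean was below the expected contact in growing cells, at -0.16, and above it in RIS cells, at 0.37. With intron 1 the means were -0.14 and 0.22. Intron 1, the 202 kb that follow the first exon, contacted the 3′ part at 1.66, 1.64 and 1.43 against 1.72 and 1.62, so the groups overlapped in the strongest contacts within the gene. Intron 3 and intron 1 contacted each other at 0.37 and 0.69 as means, without overlap, a difference of 0.33 that was close to the 0.36 of intron 1 with the upstream bins. Within the 3′ part the means were -0.16 and 0.12, also without overlap, and within the upstream bins -0.06 and 0.14. The single bin that holds intron 2 and the 3′ part gave 0.96 and 0.93.

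**Figure D3:**
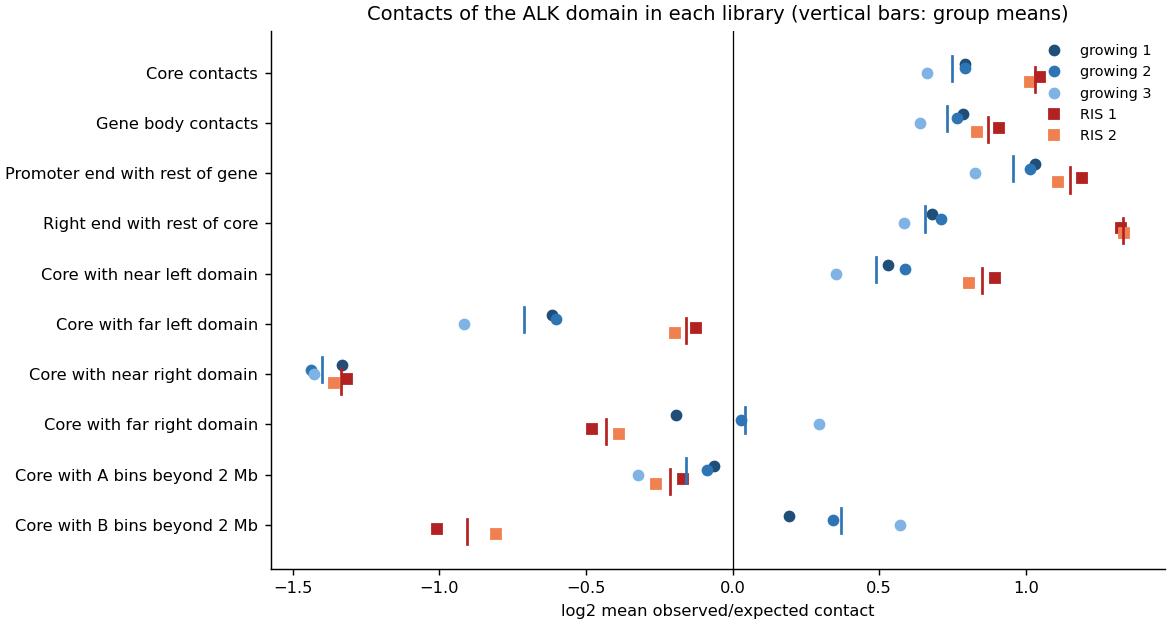
Log2 mean observed over expected contact of the ALK domain in each library, with circles for growing libraries, squares for RIS libraries and vertical bars for group means. RIS and growing points separate for all sets shown except the near right domain and A bins beyond 2 Mb, and the widest gap is for B bins beyond 2 Mb.

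Counts of called pairs are set beside those of the genome and were not used as support. The test was limma on log2 balanced values, with Benjamini-Hochberg adjustment at 5% over all 2095325 bin pairs of 40 kb at distances of at most 2 Mb. It called 1590 pairs, or 0.0759%, and 0 of the 253 pairs of the core. An unadjusted limma p under 0.05 was found for 43 of the core pairs and for 206812 of all pairs. Over all pairs limma called 0 without RIS replicate 1 or any 1 of the growing libraries, and 1082 without RIS replicate 2. By voom, which weights recovered contacts by their precision, 55 of the 253 core pairs were called, all higher in RIS, where 0.787% of all pairs were called higher. Of these pairs, 19 joined the last 3 bins of the core with ALK bins other than the start site bin, out of 51 tested. Among those ALK bins of the core themselves 28 of 136 pairs were called, and between them and the start site bin 1 of 17. Recovered contacts are not balanced between bins, and the core bins held more of them in RIS, at 0.22 against 0.09 (log2 over the median bin). Over these 136 pairs the median log2 difference was 0.303 by voom and 0.105 by limma on balanced values. The part of coverage in the voom calls was not tested. The voom count in the core was 8 without RIS replicate 1, 6 without RIS replicate 2 and 35 without growing replicate 3. Over all pairs the share called higher in the same fits was 0.0622%, 0.0407% and 0.607%, so calls were fewer across the genome as well.

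To the left, where CLIP4, PCARE and TOGARAM2 lie next to ALK, contacts with the core were more frequent in RIS. The value over 437 pairs with the 19 bins to the left was -0.08, -0.04 and -0.31 in growing cells and 0.34 and 0.26 in RIS. The difference of 0.45 was 0.40 and 0.57 within the classes. The near left domain, at chr2:29160001-29440000, was already above expected in growing cells, with means of 0.49 and 0.85. It holds CLIP4, a cytoplasmic linker protein gene, PCARE, which is needed in photoreceptors, and TOGARAM2, and its last bin, at 29400001, holds the 3′ end of ALK itself. That bin contacted the core at 0.61, 0.50 and 0.32 in growing cells and 1.11 and 1.11 in RIS, so part of the values of the left neighbours is that of ALK. The far left domain, with PLB1, PPP1CB, SPDYA, TRMT61B and WDR43, had means of -0.71 and -0.16.

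The last 3 bins of the core took part in this too. They contacted the near left domain at 1.63, 1.82 and 1.46 in growing cells and 2.28 and 2.37 in RIS. In the bin at 29160001, WDR43 ends and TOGARAM2 starts. Its contact with the last 3 bins of the core was 5.01, 6.44 and 5.32 times the expected in growing cells and 9.38 and 10.6 times in RIS. From the start site bin of ALK the near left domain did not separate the groups, with 1.02, 1.19 and 0.45 against 1.43 and 1.10.

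To the right the picture differed by domain. The near right domain at chr2:30360001-30960000, with YPEL5, LBH and LCLAT1, was kept apart from the core in every library. Its values were -1.33, -1.44 and -1.43 in growing cells and -1.31 and -1.36 in RIS, so the groups overlapped. The far right domain at chr2:30960001-31520000, with GALNT14, CAPN14, EHD3 and most of CAPN13, contacted the core at -0.19, 0.03 and 0.30 in growing cells and -0.48 and -0.39 in RIS. Over all 29 bins to the right the means were -0.52 and -0.83, a difference of -0.31, which was -0.24 and -0.46 within the classes and -0.17 on recovered contacts. In growing cells the core thus contacted the far right domain more than the near one, and this contrast was smaller in RIS.

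The borders of the domain stood at the same bins in all 5 libraries. Insulation is the log2 of the mean contact between the 13 bins on either side of a position over the mean of chromosome 2, so lower values mean a sharper border. At the right end of the core it was -1.65, -1.79 and -1.77 in growing cells and -1.60 and -1.72 in RIS. At the left end, inside the 3′ part of ALK, it was -0.39, -0.44 and -0.55 against -0.26 and -0.42. With this window of 13 bins the groups overlapped at both ends. Within 2 bins of each end, the lowest point was at 29440001 on the left and at 30360001 on the right in every library. Borders further out, at 29040001, 29160001 and 30960001, were present in every library as well. The border at 29160001 had -0.52, -0.56 and -0.54 in growing cells and -0.40 and -0.39 in RIS. It was lower than the left end of the core in growing 1, growing 2 and RIS 1. With a window of 20 bins the groups did not overlap at either end. The left end then had -0.33, -0.35 and -0.51 in growing cells and -0.11 and -0.25 in RIS, and the right end -1.20, -1.21 and -1.19 against -1.28 and -1.31, a difference of -0.10 in place of 0.08.

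The core lay between compartments in growing cells and on the A side in RIS. The compartment score is the first component of the contact pattern of chromosome 2 in bins of 120 kb, scaled to an SD of 1 and turned so that gene-rich bins are positive. The mean over the 8 bins that overlap the core was -0.10, -0.20 and -0.50 in growing cells and 0.45 and 0.36 in RIS. The difference of 0.67 was 0.60 and 0.86 within the classes. All 8 bins had both RIS libraries above all growing libraries, where 26.3% of all bins of chromosome 2 did. At the start site bin of 120 kb the score was -0.53, -0.57 and -0.96 in growing cells and 0.20 and 0.13 in RIS. Over 1947 bins the median difference was -0.09.

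**Figure D4:**
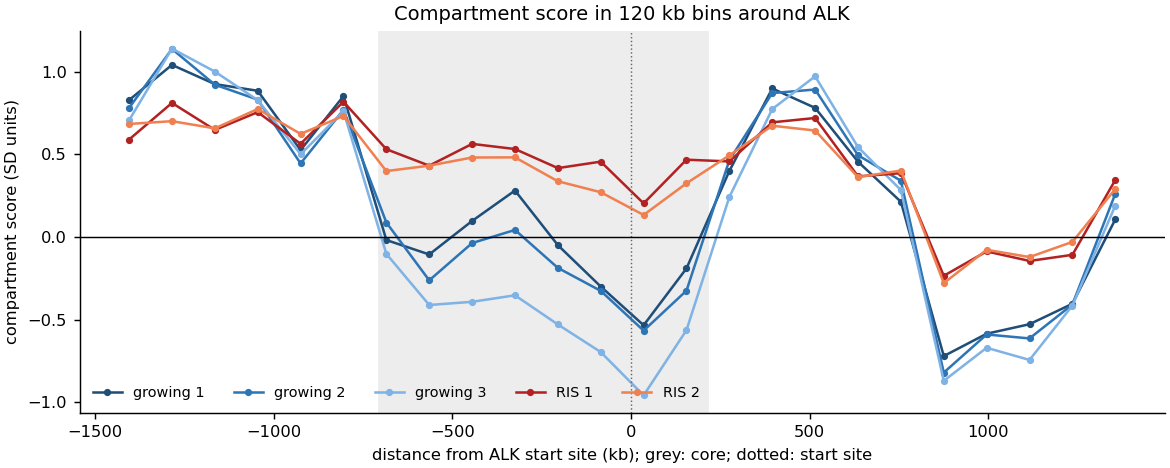
Compartment score in bins of 120 kb around ALK, in SD of chromosome 2, against distance from the ALK start site in kb, 1 line per library. In the core (grey) the growing lines lie mostly below 0 and the RIS lines above 0, the bins to either side are positive in all libraries, and the next negative bins, in the far right domain, are higher in RIS.

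The bins to the left of the core were in A in every library, with a mean of 1.11 in growing and 0.76 in RIS cells at 28800001, near PLB1. The bin at 30480001, with LBH, had 0.85 and 0.68. The far right domain was mostly in B, with -0.80 and -0.26 at 30960001. In growing cells the core was thus a stretch near or below 0 between positive neighbours, and in RIS it was positive but mostly below them.

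Distant contacts of the core were fewer in RIS. The share of its contacts on chromosome 2 that lay beyond 2 Mb was 20.8%, 23.3% and 26.2% in growing cells and 16.0% and 14.9% in RIS. The groups did not overlap, and the difference of the means was -7.97 percentage points, with -6.06 and -11.3 within the classes. The median bin of chromosome 2 had 24.4% and 24.0%. Contacts with other chromosomes made up 7.76%, 7.37% and 7.27% of all contacts of the core in growing cells and 8.87% and 8.87% in RIS, and the libraries as wholes differed in the same direction.

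The difference lay with partners in compartment B. Against the 2619 bins that were in B in all libraries, the core had 0.19, 0.34 and 0.57 in growing cells and -1.01 and -0.81 in RIS (log2 mean observed over expected). Against the 2655 bins that were in A in all libraries it had -0.06, -0.09 and -0.32 against -0.17 and -0.26, which overlapped. The log2 ratio of A to B contacts thus differed by 1.22 between the states. Among 5410 overlapping windows of 23 bins on chromosome 2 the median of this difference was -0.19, and no other window was as high as the core. This rank follows in part from the selection of the domain on the same libraries, which also gave the A and B labels.

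At 200 kb, limma called 31 of 560 pairs between the core and bins beyond 2 Mb, all lower in RIS, where 0.779% of the 842377 pairs tested were called lower. By voom 104 pairs were called lower and 4 higher, where 4.07% and 8.61% of all pairs were. With partners in B, voom called 48 of 215 pairs to the left and 50 of 84 to the right lower. With partners in A it called 0 of 127 and 3 of 74 lower. A pair was tested if its mean over the 3 growing and 2 RIS libraries was at least 10. Pairs with growing above RIS passed this filter more easily than the reverse, here and over all pairs. The share called among pairs with B partners elsewhere was not computed. The limma count was 0 without any 1 of the growing libraries, where limma called 6 to 14 of all pairs tested, and 0 with the class of duplicate reads as a block, where it called 0 of all pairs. It was 8 without RIS replicate 1 and 45 without RIS replicate 2, where 0.892% and 1.83% of all pairs were called lower. The voom count, in either direction, was 12 and 6 without RIS replicates 1 and 2 and 61 without growing replicate 3, or 2.14%, 1.07% and 10.9% of the core pairs. Over all pairs these fits called 6.28%, 4.63% and 10.2%, mostly higher, so without either RIS replicate the core's share was below that of all pairs. Counted as lower alone, the shares were 1.96%, 0.714% and 10.7% in the core and 0.598%, 0.399% and 3.64% over all pairs.

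Most of the pairs called lower led to a few stretches. These were formed by joining neighbouring partner bins with at least 1 pair called lower by voom. Fewer contacts in RIS thus follow from their choice. From chr2:33800001 to 37200000, a stretch of 17 bins with FAM98A, CRIM1, FEZ2, VIT, STRN and HEATR5B, 49 pairs were called lower by voom. Most of these led to its bins at chr2:34000001-36400000, which hold no protein-coding gene. The bin with FAM98A had 3 such pairs. The bins of the stretch from 36600001 on, which hold FEZ2, VIT, STRN, HEATR5B and part of CRIM1, were in A and had 1 such pair each. The core and this stretch shared 1639, 2242 and 2688 contacts in growing 1 to 3 and 534 and 702 in RIS 1 and 2. Per 1000000 contacts of each library these were 10.6, 12.8 and 14.9 against 4.86 and 4.66. To the left, chr2:22000001-23600000, which holds no protein-coding gene, had 700, 941 and 1125 contacts in growing cells and 243 and 346 in RIS. The bin at chr2:200001-400000, with SH3YL1, ACP1 and ALKAL2, was picked for ALKAL2. Voom called 1 of its pairs lower, as in other single bins, where 4.07% of all pairs were called lower. Its contacts with the core were 47, 79 and 85 in growing cells and 17 and 28 in RIS. Per 1000000 contacts of each library these were 0.305, 0.450 and 0.470 against 0.155 and 0.186.

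The other receptor tyrosine kinase genes place ALK in its family. Contacts among the 13 bins around the start site of ALK were -0.21, -0.22 and -0.27 in growing cells and 0.08 and 0.01 in RIS, a difference of 0.28. For ALK these 13 bins include the last 3 bins of the core, which lie outside the gene, and reach beyond its right end. Of the 58 receptor genes listed, 57 could be measured, and ALK had the highest difference among them, a rank that follows in part from the selection of this domain on the same libraries. By contacts within the gene body, which could be measured for 11 of the receptor genes, ALK was not the highest, with 0.14 against 0.26 for the ephrin receptor gene EPHB1. Around the start site, the insulin receptor gene INSR followed ALK with 0.23, then KDR, a receptor of vascular growth factors, with 0.22. At the other end of the start site differences were ERBB4, a neuregulin receptor, with -0.35, and the ephrin receptor EPHA7 with -0.30. Both RIS libraries were above all growing libraries for 24 of the 57 genes, where 36.9% of 18351 protein-coding genes were, and below them for 13, where 23.1% were. These shares were near those of all genes, and the median difference was 0.0049 against 0.017 over all genes. LTK, the closest relative of ALK, differed by -0.06 and ROS1 by -0.08.

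**Figure D5:**
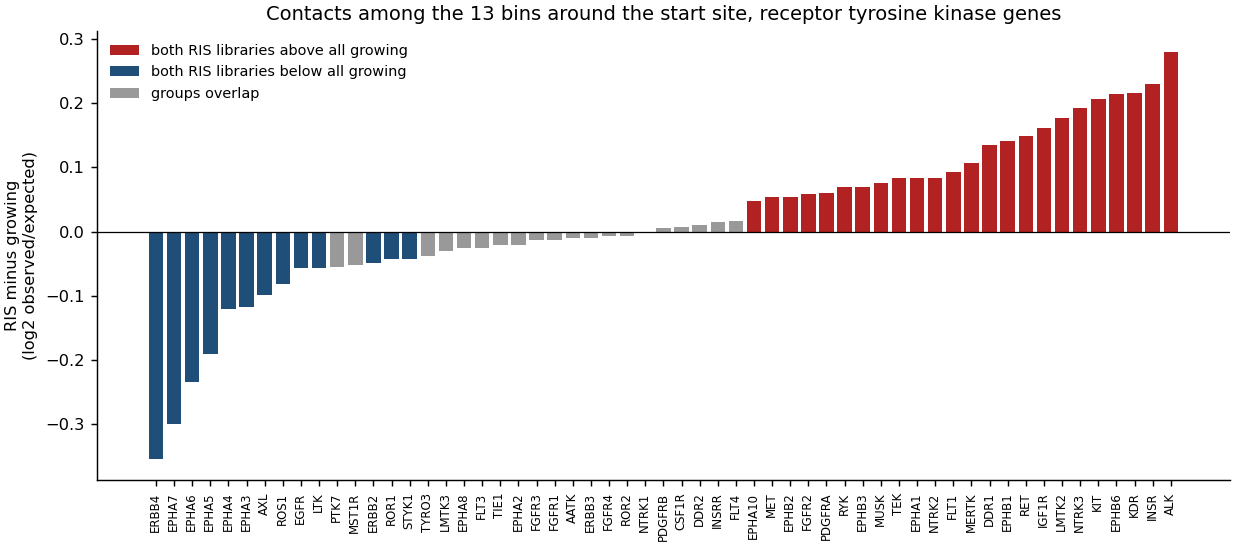
Difference between RIS and growing in the log2 mean observed over expected contact among the 13 bins around the start site of each of 57 receptor tyrosine kinase genes, sorted. Red bars mark the 24 genes whose RIS values both lie above every growing value, blue bars the 13 genes whose RIS values lie below, grey bars overlap, and ALK is at the upper end with 0.28.

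Ligands and partners of ALK differed in either direction. All 11 were measured around their start sites, with a median difference of 0.0028. ALKAL2 had 0.05, -0.01 and 0.08 in growing cells and 0.24 and 0.22 in RIS, whereas ALKAL1 had a mean of -0.42 and -0.58. PTPRZ1, a receptor phosphatase that binds pleiotrophin, differed by -0.14 and the pleiotrophin gene PTN by 0.0028. Among adaptors, SHC1 differed by 0.07, FRS2 by 0.05, IRS1 by 0.06 and GRB2 by -0.08. Both RIS libraries were above all growing libraries for 5 of the 11, or 45.5%, where 36.9% of all protein-coding genes were, and below them for 4, or 36.4%, where 23.1% were.

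The genes most like ALK in their gene body contacts over the 5 libraries, at least 5 Mb away, were KCNJ6, DPF3, USP34, SORCS2 and FCHSD2. Their Euclidean distances to ALK were 0.11 to 0.13 on the log2 scale. KCNJ6, a potassium channel gene, had 0.72, 0.74 and 0.71 in growing cells and 0.86 and 0.86 in RIS. DPF3, which encodes a chromatin remodelling subunit, had 0.71, 0.72 and 0.72 against 0.90 and 0.85. Both RIS libraries were above all growing libraries in each of the 5, which the choice by likeness brings about.

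Base composition and restriction sites bear on how many contacts a bin can give. The core held a median of 11 HindIII sites per bin, between 5 and 20, where the median bin of the genome had 12. Its median GC content was 43.0% against 39.7%. The first bin of the core had the fewest sites and the fewest recovered contacts, so the values of its pairs rest on few contacts.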

How the data were processed

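Hi-C contact maps of 5 libraries were analysed, 3 growing and 2 RIS, grouped by their labels. The authors aligned reads to hg19 with HiC-Pro (tools and build per the submitters' processing notes) and deposited, as signal, the balanced contacts of each pair of 40 kb bins, brought to a total of 200000000 per library. When the balancing was undone with 1 factor per bin, 100% of values in each library were whole within a tolerance of 0.05, which grew in proportion for counts above 10, and these recovered contacts gave the depth. Capture Hi-C libraries were not used here. The study calls its replicates biological, while the labels do not say whether the libraries were separate cultures. Dangling ends were more frequent in both RIS libraries, which cannot be told apart from the condition.

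Observed over expected contacts, insulation and compartment scores were computed in Python 3.11.15 with numpy 2.4.6. Pairs were tested with limma 3.58.1 in R 4.3.3, on log2 values with a pseudocount of 0.5 and loess normalization, at a minimum mean of 5 for 40 kb pairs and 10 for 200 kb pairs, with Benjamini-Hochberg adjustment at 5%. Voom on recovered contacts was an alternative. Scripts were tested on simulated data. Sequences came from the hg19 reference, in which 24 of 25 chromosomes had the lengths of the bin table, the mitochondrial one being the exception. One sequence match in the core is not reported here.

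The domain and gene lists were chosen with earlier results of these data known. The last 3 bins of the core and the splits of its flanks were chosen after the maps were seen. Named genes were ALK, the protein-coding genes of the region, receptor tyrosine kinases and ALK partners, and the 5 genes of at least 8 bins, at least 5 Mb away, whose contacts were closest to those of ALK. Alternatives were the expected contact, recovered contacts, window and bin sizes, filters, blocks and leaving out each library.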

Additional observations from a re-analysis of the deposited data

How the results depend on the processing

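Of 85 alternative values of the 9 differences, 74 moved by less than the spread between replicates, 10 moved by more and 1 reversed. On recovered contacts the differences were 0.45 for the core, 0.32 within ALK, 0.43 for the promoter end and -0.17 for core and right neighbours. In the libraries with many duplicate reads they were 0.35 for the core, 0.57 and -0.46 for the left and right neighbours, 0.86 for the compartment score and -11.3 percentage points for contacts beyond 2 Mb. This class holds only growing 3 and RIS 2, so it compares 1 library with 1. Among growing libraries, many duplicate reads and the MSCV vector coincide in growing 3 and cannot be told apart. With a window of 20 bins, insulation differed by 0.22 at the left end and by -0.10 at the right end, the reversed value, against 0.12 and 0.08. The cause was not tested for any of these.

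Leaving out each library gave 0.24 to 0.30 for the core, 0.10 to 0.18 within ALK, 0.13 to 0.24 for the promoter end, 0.36 to 0.50 and -0.38 to -0.22 for the left and right neighbours, 0.05 to 0.20 and 0.02 to 0.13 for insulation at the left and right end, 0.55 to 0.75 for the compartment score and -9.29 to -6.60 for contacts beyond 2 Mb.

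Called pairs depended on the test. In the core, limma called 0 pairs with the replicate block, with the class of duplicate reads as a block and without any 1 library, and voom called 55, with the class block 77 and with the replicate block 41. Beyond 2 Mb, limma called 31, and 0 with the class block, with a minimum of 5 and with the replicate block, and voom called 108, with the class block 120 and with the replicate block 60. Without 1 library, these counts were 0 to 45 by limma and 6 to 130 by voom beyond 2 Mb, and 6 to 47 by voom in the core. In the same fits the counts over all pairs were 6 to 16213 and 39037 to 96481 beyond 2 Mb and 1144 to 20580 at 40 kb. With the class block and the replicate block, voom called 1.92% and 1.06% of all pairs at 40 kb, and 13.3% and 10.6% beyond 2 Mb. The voom fits without 1 library were added after seeing the data. Over all pairs, limma called 1590 at 40 kb, and 0 with either block or with no minimum. Beyond 2 Mb it called 17147 of all 842377 pairs, 134 of 1552191 with a minimum of 5, and 0 with either block. Only 2 replicate numbers are shared by the groups. Deviations of same-numbered libraries correlated at 0.00839 and 0.00564 at 40 kb and at 0.0119 and 0.0102 at 200 kb. For each growing library the correlations with RIS 1 and RIS 2 are equal with opposite signs by construction, so these values cannot decide on pairing. The labels do not say whether the numbers pair libraries, and no pairing was assumed.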
